A study of Rattus norvegicus with 12 samples.

Results

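miR-466h and miR-467b are microRNAs known from the mouse, and they were measured in rat medial entorhinal cortex (MEC) with 2 of the 375 miRNA assays on a rodent TaqMan card. Both were chosen from measured values of these samples, miR-466h for its higher level in stellate than in non-stellate cells and miR-467b for its low level in tissue. The differences used for the choice are therefore given below as descriptions with no test. Tests are given only for miR-467b between the sorted populations and for miR-466h between tissue and sorted cells.

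A microRNA is cut from a hairpin transcript and guides the silencing machinery to messenger RNAs that pair with its seed, the bases near its 5′ end. The miR-466, miR-467, miR-297 and miR-669 miRNAs come from a large repeated cluster that, in the mouse, lies within an intron of Sfmbt2, a Polycomb group gene expressed from the paternal allele in early embryos and placenta. The cluster is known from rodents, and its many copies carry runs of alternating U and G or of alternating C and A. Assays for such closely related miRNAs may share template, and cross-detection between them was not tested here.

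Total RNA came from 12 Long Evans rat samples. In 5 stellate samples, cells were labelled by the retrograde dye DiO, placed in the dentate gyrus on postnatal day 2, and were sorted as DiO positive on day 4 or 5. The 5 non-stellate samples were the DiO negative cells sorted from the same dissociated MEC, and the 2 tissue samples were MEC dissected on day 23, neither dissociated nor sorted. The dye marks cells by where their axon ends, so a stellate neuron that took up no dye stayed in the non-stellate population, which also held all other neurons, glia and vascular cells. The sorted pools joined both hemispheres and were purified with another RNA kit than the tissue. Because of their low concentration, 2.5 µl of their cDNA entered pre-amplification. No pre-amplification volume is given for the tissue samples. Age, dissociation, sorting, kit, input and possibly pre-amplification thus differ together between tissue and sorted cells and cannot be told apart. One description field calls non-stellate 3 and 5 labelled, against their title, source and fluorescence, and results without both are given below.

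The read-out is Ct, the PCR cycle at which the signal crosses its threshold, which falls by 1 when template doubles. A Ct of 40 marks an undetermined well. The U6-scaled Ct is Ct minus the mean of the 4 wells of U6, a small nuclear RNA, in the same sample, and the median-centred Ct is Ct minus the median of the 176 miRNA assays determined in all 12 samples. Between 234 and 260 miRNA assays were determined in stellate, 203 to 241 in non-stellate and 292 to 302 in tissue samples, and mean U6 Ct was 17.7, 18.5 and 15.8. The median Ct of the 176 assays averaged 28.4, 29.6 and 23.7 in the same order, so the tissue cards differed more from the sorted ones in miRNA signal than in U6. Both miR-466h and miR-467b were determined in all 12 samples and passed the filter for testing, which kept 222 assays.

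The rat reference table held no mature sequence named miR-466h or miR-467b (0 of 2 matched). The rat miR-466 sequences and miR-297 are shown instead to make the repeats of this family visible, from RefSeq on assembly GRCr8, all on the minus strand, 5′ to 3′, with the seed (bases 2 to 8) in capitals.
rno-miR-466d, chr17:72913060-72913081: aUGUGUGUguauguucuuuugu
rno-miR-466c-5p, chr17:72927649-72927669: uGUGAUGUguguauguacaug
rno-miR-466b-5p, chr17:72942513-72942534 and chr17:72945547-72945568: uAUGUGUGuguguauguccaug
rno-miR-297, chr10:98715721-98715743: aUGUAUGUgugcauguaugcaug
rno-miR-466c-3p, chr17:72927610-72927630: uAUACAUGcacacauacacac
rno-miR-466b-2-3p, chr17:72942475-72942495: aUAUACAUacacacauacaca
rno-miR-466b-3p, chr17:72945512-72945533: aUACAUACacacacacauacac
Each of these 7 distinct sequences had a seed of its own, shared by 0 other mature rat miRNAs of the table. The run UGUGUG occurred in 4 of the 7 sequences and in 11 of all 692 distinct mature rat sequences (1.59%). The run CACACA occurred in the other 3 and in 8 of the 692 (1.16%). Both runs were searched on the mature strand only, and a match describes the letters and nothing more. The 4 Mir466 hairpin genes lay on chromosome 17 between 72913004 and 72945578, all inside the rat Sfmbt2 gene (72844037 to 73038599) and on its strand, whereas Mir297 lay on chromosome 10. The card names its 2 rat assays rno-miR-466b and rno-miR-466c and gives no arm, so neither was assigned to one of these sequences.

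miR-466h was among the earlier signals of the card in every sample. Its raw Ct was 23.8, 24.2, 26.8, 26.6 and 24.3 in stellate samples 1 to 5, 28.2, 25.3, 28.6, 27.5 and 28.7 in non-stellate samples 1 to 5, and 20.2 and 19.6 in tissue samples 1 and 2. Ranked by Ct within a sample, which needs no reference RNA, it stood at 16, 17, 37, 61 and 27 in the stellate samples, at 76, 22, 58, 66 and 44 in the non-stellate samples and at 25 and 18 in tissue. Its rank in tissue thus lay within the range of its ranks in stellate cells.

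On the U6 scale, miR-466h stood at 7.01, 6.01, 7.75, 8.74 and 7.78 cycles in the stellate samples (mean 7.46 ± 1.02 SD, n = 5) and at 10.1, 7.58, 10.6, 9.04 and 8.45 in the non-stellate samples (9.16 ± 1.23 SD, n = 5). The groups overlapped: non-stellate 2 was higher in miR-466h than 3 of the 5 stellate samples, and stellate 4 was lower than 2 of the 5 non-stellate samples. Tissue stood at 4.26 and 3.99 (4.13 ± 0.185 SD, n = 2), beyond all 10 sorted samples. The order of the levels was therefore tissue, stellate, non-stellate, with the last 2 groups overlapping.

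miR-467b was a late signal. Its raw Ct was 33.2, 30.7, 30.1, 30.9 and 31.8 in the stellate samples, 31.6, 31.2, 31.0, 31.3 and 32.3 in the non-stellate samples, and 33.7 and 30.4 in tissue. These values overlapped across all 3 groups, although most other assays came up several cycles earlier in tissue. By rank it stood at 205, 165, 109, 166 and 190 in the stellate samples, at 158, 152, 110, 156 and 124 in the non-stellate samples and at 279 and 246 in tissue.

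On the U6 scale, miR-467b stood at 16.4, 12.6, 11.04, 13.0 and 15.2 cycles in the stellate samples (13.7 ± 2.15 SD, n = 5), at 13.5, 13.4, 13.1, 12.8 and 12.1 in the non-stellate samples (13.0 ± 0.554 SD, n = 5) and at 17.8 and 14.8 in tissue (16.3 ± 2.12 SD, n = 2). The stellate samples lay on both sides of the narrow non-stellate range, and tissue 2 lay inside the stellate range. The order of mean levels was non-stellate, stellate, tissue, with every pair of neighbours overlapping.

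**Figure D1:**
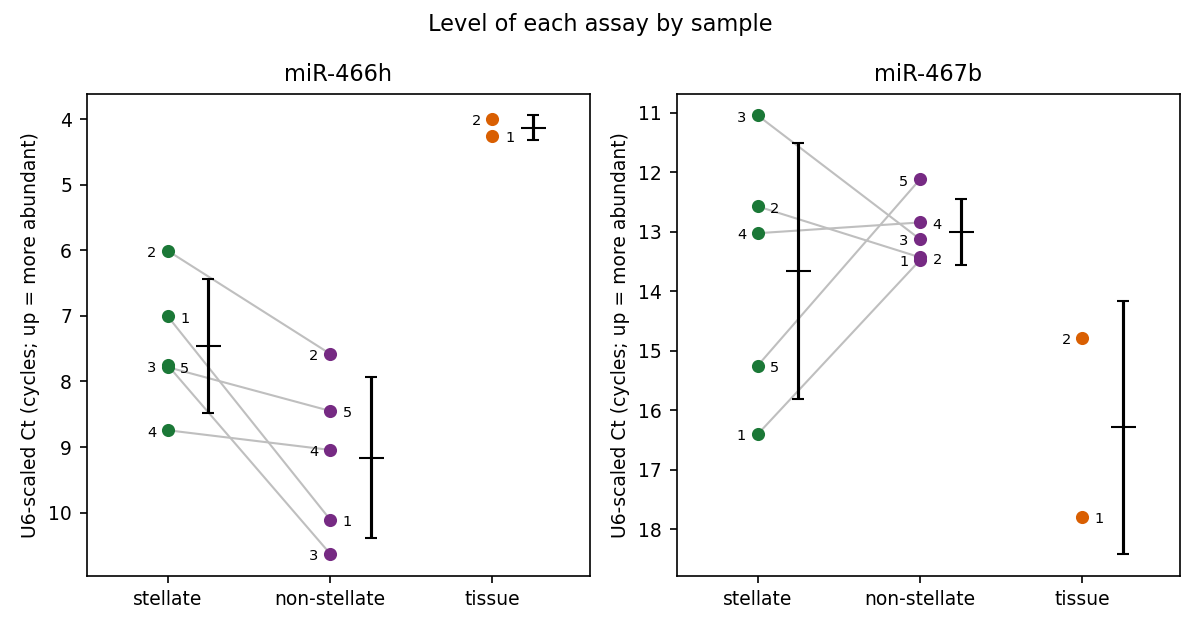
U6-scaled Ct of miR-466h (left) and miR-467b (right) in each sample by group, on an inverted axis in cycles so that up means more abundant; numbers are replicates, grey lines join the stellate and non-stellate sample of the same number, and black bars give the mean ± SD. miR-466h was higher in stellate cells in 5 of 5 pairs and highest in tissue, whereas miR-467b was higher in stellate cells in 2 of 5 pairs.

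For miR-466h, the stellate minus non-stellate log2 difference, with positive values meaning higher in stellate cells, was 1.70 ± 0.71 (SE, limma, U6 scaling). It was the difference for which this miRNA was chosen and carries no test. It ranked 25 from the highest of the 222 tested assays, whose median was 0.46, so that miR-466h lay 1.24 above that median. No assay was called higher or lower in this comparison (limma, Benjamini-Hochberg adjusted p below 0.05: 0 of 222 in each direction, 0% called), and 16 of 222 had an unadjusted p below 0.05. The authors, with their own filter of wells and their own fit, reported several miRNAs as up-regulated in the labelled cells and none as down-regulated. The source of this disagreement was not tested. Median centring moved the median of all tested assays to 0.07 and the difference of miR-466h to 1.31 ± 0.65.

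The pairs of sorted samples from the same dissociated tissue differed widely in the size of the miR-466h difference. On the U6 scale it was 3.10, 1.57, 2.87, 0.30 and 0.67 in pairs 1 to 5, and after median centring 3.66, 0.22, 1.03, 0.22 and 1.42. All 5 pairs had the higher level in stellate cells on both scales, with pair 1 the largest on both and pair 4 under 0.5. The groups overlapped in miR-466h under median centring and on raw Ct as well, where 2.7% and 4.05% of all tested assays were higher in stellate cells without overlap. Without non-stellate 3 and 5 the miR-466h difference was 1.45.

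For miR-467b, the stellate minus non-stellate log2 difference was −0.66 ± 0.91 (SE, 95% interval −2.64 to 1.32), which did not pass the test (limma adjusted p = 0.790; exact two-sided permutation p = 0.516 over 252 splits, smallest possible 0.00794). The share of all tested assays called was 0%, and the interval allows a difference of more than 1 cycle in either direction. Neither test used the pairing of the sorted samples, and a limma fit with the pairs as a block gave an adjusted p of 0.809. The pair differences were −2.92, 0.86, 2.08, −0.18 and −3.13 on the U6 scale, so 2 of 5 pairs were higher in stellate cells. The direction of the mean turned to 0.16 on raw Ct and to 0.03 without stellate replicate 1. After median centring the difference was −1.05 ± 0.76 (limma adjusted p = 0.493), with 1 of 5 pairs higher in stellate cells.

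miR-466h was higher in tissue than in sorted cells, by a log2 difference of 4.18 ± 0.82 (SE, 95% interval 2.41 to 5.96; limma adjusted p = 0.000834; exact two-sided permutation p = 0.0303 over 66 splits, the smallest that 2 against 10 allows). Both tests count the 10 sorted samples as independent units, although they form 5 pairs, so the exact p rests on more units than the design holds. A limma fit with the pairs as a block gave an adjusted p of 0.000589. In the fit without a block 138 of 222 assays were called higher (62.2%) and 3 lower (1.35%), and the median of all tested assays was 3.02. miR-466h stood 1.17 above that median and ranked 70 of 222. Both tissue samples lay beyond all sorted samples in U6-scaled Ct, as did 68% of the tested assays in that direction. After median centring 23.9% of assays were called higher and 25.2% lower, and the miR-466h difference of 1.195 ± 0.76 did not pass the test (limma adjusted p = 0.216; exact permutation p = 0.273), with tissue inside the range of the sorted samples. Scaling to Y1, another small RNA on the card, gave 0.68 (limma adjusted p = 0.651). The U6-scaled difference was 3.33 from stellate cells alone and 5.04 from non-stellate cells alone, given without a test because these 2 values differ by the difference used for the choice. Without non-stellate 3 and 5 it was 4.06 (limma adjusted p = 0.000923).

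miR-467b was chosen for its low level in tissue, and its tissue minus sorted log2 difference of −2.96 ± 1.16 (SE, U6 scaling) is a description. It ranked 220 from the highest of 222, and it lay 5.98 below the median of all tested assays. The size depended on the scaling: it was −5.95 ± 1.04 after median centring, where both tissue samples lay beyond all sorted samples (26.1% of the tested assays did so in that direction), and −0.65 ± 0.90 on raw Ct, where they overlapped (88.7% of the tested assays were higher in tissue without overlap). Without non-stellate 3 and 5 it was −2.83 on the U6 scale.

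**Figure D2:**
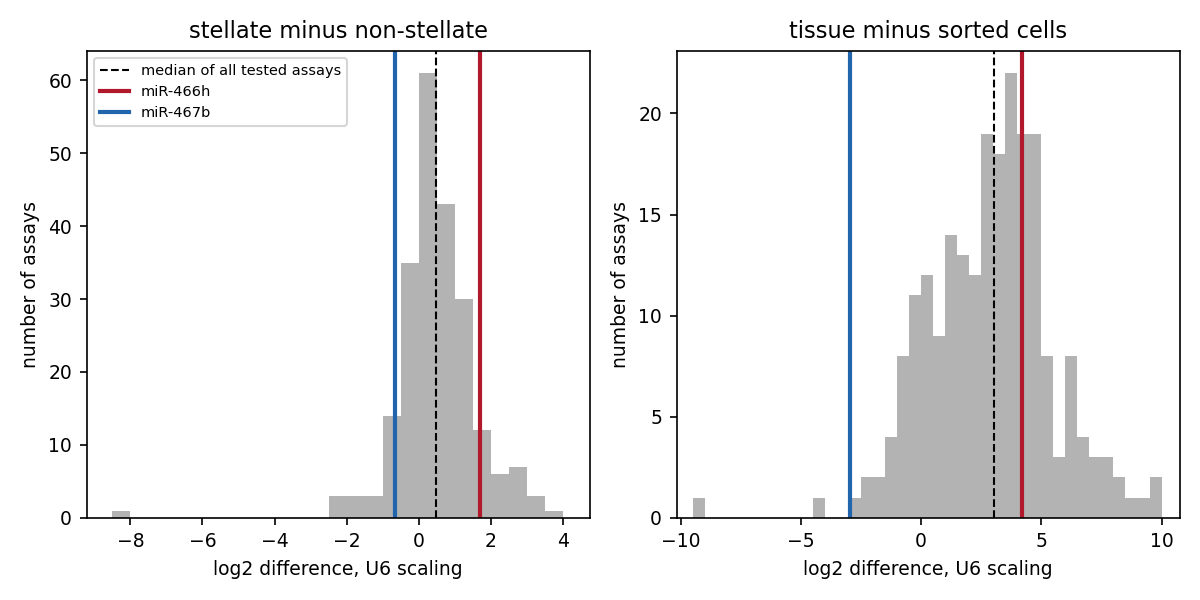
Histograms of the log2 difference (U6 scaling) of the 222 tested assays, stellate minus non-stellate (left) and tissue minus sorted cells (right), with the number of assays on the vertical axis; the dashed line is the median of all tested assays and coloured lines mark miR-466h and miR-467b. miR-467b ranked 220 of 222 in the tissue comparison, and miR-466h stood 1.24 and 1.17 above the medians of the left and right histogram.

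The tissue value of miR-467b rests on 2 late wells that were far apart. Tissue 1 and tissue 2 differed by 3.37 cycles in miR-467b and by 0.63 in miR-466h. Among the 51 assays determined in both tissue samples with a mean Ct over 30, the median absolute difference was 0.617, and miR-467b was the 1 assay that differed by as much as 3.37. Among the assays at a Ct of 30 or less, which include miR-466h, the median was 0.176. For comparison, the pooled SD of the 4 U6 wells within a sample was 0.366 cycles. Without tissue replicate 1 the tissue minus sorted difference of miR-467b was −1.46, and without tissue replicate 2 it was −4.46.

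**Figure D3:**
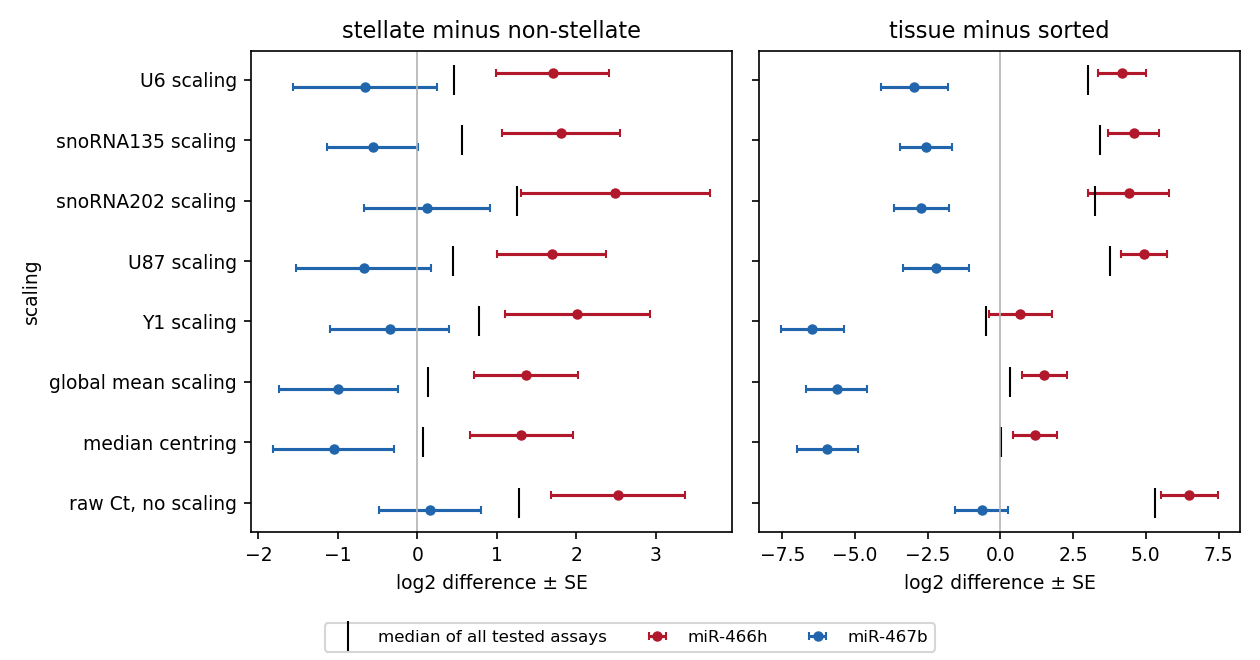
Log2 differences ± SE of miR-466h and miR-467b under 8 scalings, stellate minus non-stellate (left) and tissue minus sorted cells (right), with the median of all tested assays as a black tick. In the tissue comparison miR-466h ranged from 0.68 (Y1) to 6.49 (raw Ct) and miR-467b from −6.46 (Y1) to −0.65 (raw Ct). The distance of each from the median, 1.17 and −5.98, cannot change, because each scaling shifts all assays of a sample by the same amount.

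The gap between both assays within a sample is free of any reference RNA, since whatever shifts all wells of a card cancels. It compares samples, not the amounts of the 2 miRNAs, because assays can differ in efficiency. The Ct of miR-467b minus that of miR-466h was 9.39, 6.57, 3.29, 4.28 and 7.47 cycles in the stellate samples (6.20 ± 2.45 SD, n = 5), 3.37, 5.85, 2.50, 3.80 and 3.67 in the non-stellate samples (3.84 ± 1.23 SD, n = 5), and 13.5 and 10.8 in tissue (12.2 ± 1.94 SD, n = 2). The gap was wider in tissue than in any sorted sample, and the 2 sorted groups overlapped. Since the selection used both miRNAs, this is given without a test. The same gap taken with miR-467d in place of miR-467b averaged 2.89 ± 1.25 SD in stellate (n = 5), 1.36 ± 1.78 SD in non-stellate (n = 5) and 5.20 ± 0.782 SD in tissue samples (n = 2). With miR-467d, too, both tissue samples (5.76 and 4.65) lay above the widest sorted gap (4.36, stellate 5). A gap widest in tissue was thus not particular to miR-467b.

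**Figure D4:**
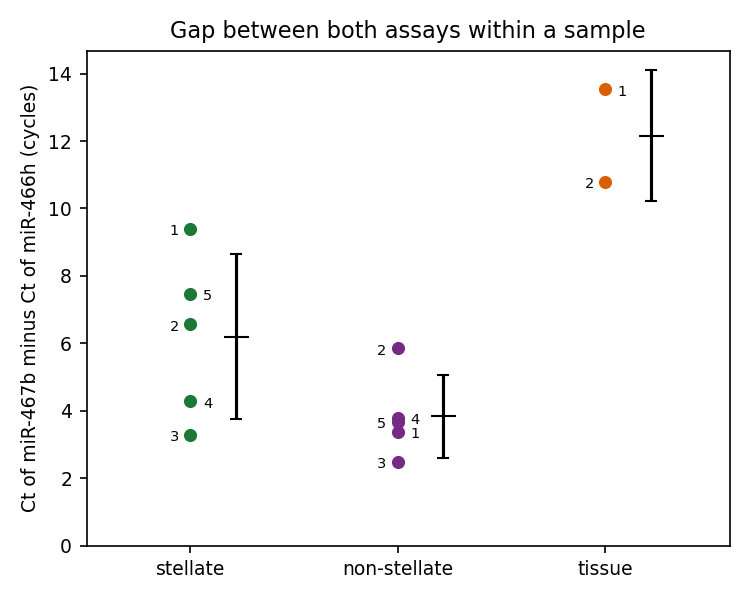
Ct of miR-467b minus Ct of miR-466h in cycles within each sample, by group, with replicate numbers beside the points and black bars for the mean ± SD. Both tissue samples (13.5 and 10.8) lie above all 10 sorted samples, whose groups overlap.

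By miRNA number alone, the card held 10 other assays of the miR-466, miR-467, miR-468, miR-297 and miR-669 names: rno-miR-466b, rno-miR-466c, miR-467a, miR-467c, miR-467d, miR-467e, miR-297b-5p, miR-297c, miR-468 and miR-669a. In contrast to miR-466h and miR-467b, most of them were determined in few sorted samples. Of their wells 20 of 50 were determined in stellate samples (40%, against 66.4% of all miRNA wells), 15 of 50 in non-stellate samples (30% against 60.64%) and 12 of 20 in tissue (60% against 79.2%). miR-467a, miR-297b-5p, miR-468 and miR-669a were undetermined in all 12 samples. rno-miR-466c, miR-467c, miR-467d, miR-467e, rno-miR-466b and miR-297c were determined in both tissue samples. An undetermined well gives no level for this sample and does not show that the miRNA was absent.

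Of the 10 assays, 3 passed the filter, and 0 were called in either comparison or direction (limma adjusted p below 0.05), beside backgrounds of 0% between the sorted populations and 62.2% higher and 1.35% lower in tissue. On the U6 scale none of the 3 had an unadjusted p below 0.05 in either comparison with undetermined wells entered as 40. In the tissue comparison the unadjusted limma p of miR-467d was 0.0476 after median centring (lower in tissue). It was 0.0302 with U87 scaling and 0.0130 on raw Ct (both higher in tissue). The median U6-scaled log2 difference of the 3 assays was 0.17 for stellate minus non-stellate, beside 0.46 over all tested assays, and 1.11 for tissue minus sorted, beside 3.02. With undetermined wells missing the tissue median of the 3 assays turned to −0.32, beside 2.92.

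rno-miR-466b, a rat member of the same family as miR-466h, had a raw Ct of 29.2, 30.3, undetermined, 30.2 and 29.8 in stellate samples 1 to 5, of 33.0, 31.9, 32.4, 31.6 and 34.1 in the non-stellate samples, and of 30.2 and 28.9 in tissue. On the U6 scale the determined wells of both groups overlapped, with stellate 5 at 13.25 and non-stellate 4 at 13.1. With the undetermined well entered as 40, the U6-scaled stellate minus non-stellate difference was −0.11 ± 1.48 (SE, limma adjusted p = 0.995), and with that well left missing it was 1.58 ± 0.60 (limma adjusted p = 0.539), a sample less. The 4 pairs determined on both sides differed by 2.56, 1.95, 0.78 and 0.66 on the U6 scale, and in the same pairs 1, 2, 4 and 5 miR-466h differed by 3.10, 1.57, 0.30 and 0.67. In tissue against sorted cells, rno-miR-466b differed by 0.37 (limma adjusted p = 0.849), against 4.18 for miR-466h, and with the undetermined well missing the direction turned, to −0.47 (limma adjusted p = 0.543).

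The miR-467 assays were nearly all late. miR-467d was the earliest of them by the mean of each group, with a raw Ct of 26.6 to 30.3 in stellate samples (median 27.6), 27.8 to 32.4 in non-stellate samples (median 28.4), and 26.0 and 24.2 in tissue. Its U6-scaled differences were 0.17 ± 0.72 for stellate minus non-stellate (limma adjusted p = 0.976) and 1.11 ± 0.86 for tissue minus sorted (limma adjusted p = 0.282), and neither passed the test. In the tissue comparison miR-467d lay 1.91 below the median of all tested assays, where miR-467b lay 5.98 below it.

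miR-467c was determined in 4 of 5 stellate samples, 1 of 5 non-stellate samples and both tissue samples, where its Ct of 33.5 and 30.4 was close to that of miR-467b (33.7 and 30.4). On raw Ct, tissue 1 was later than tissue 2 in all 8 assays determined in tissue among these 10, miR-466h and miR-467b. The share of all card assays with this order was not counted, so it is not a trait of these assays. On the U6 scale rno-miR-466c had the other order (14.84 in tissue 1, 14.91 in tissue 2). miR-467e was determined in 4 of 5 stellate and 3 of 5 non-stellate samples, with differences of 0.67 ± 2.15 for stellate minus non-stellate (limma adjusted p = 0.960) and 1.81 ± 2.55 for tissue minus sorted (limma adjusted p = 0.561). Both rest on 3 undetermined miR-467e wells entered as 40, and with these missing both directions turned, to −0.37 (limma adjusted p = 0.955) and −0.32 (limma adjusted p = 0.812). rno-miR-466c was determined in 2 of 5 stellate and 1 of 5 non-stellate samples, and miR-297c in 1 of 5 and 0 of 5.

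**Figure D5:**
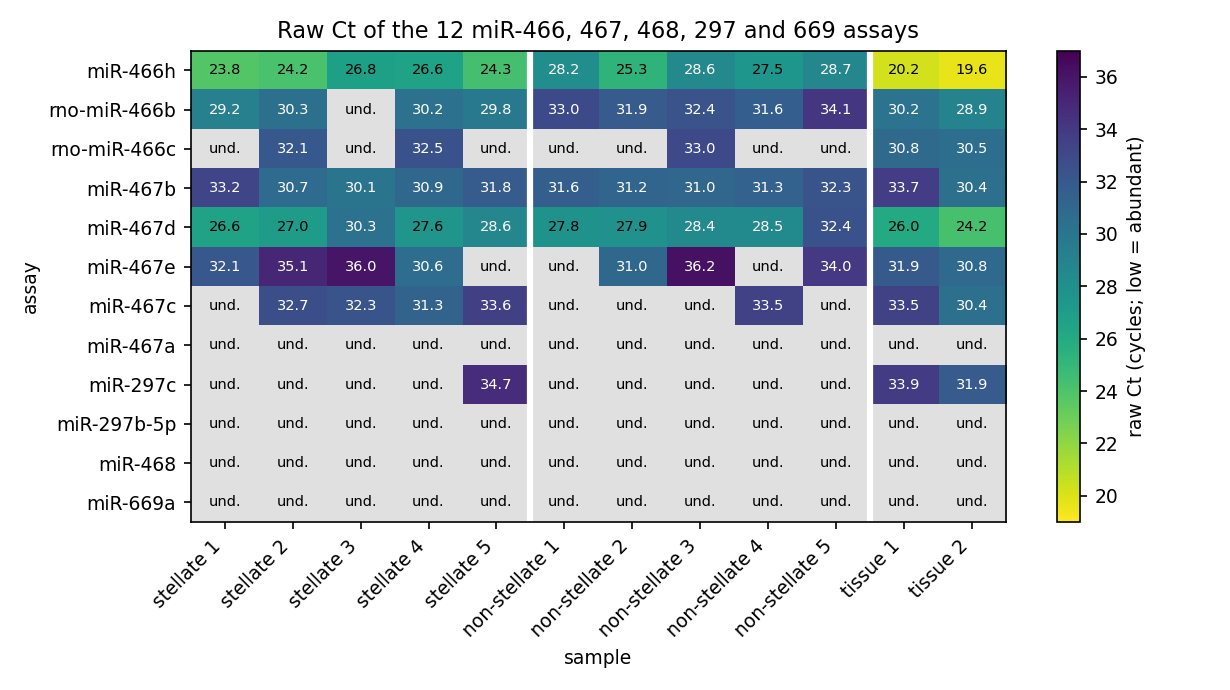
Raw Ct in cycles of the 12 assays chosen by miRNA number (rows) in the 12 samples (columns, by group), with low Ct in light colours and grey cells marked "und." for undetermined wells. miR-466h has the earliest signal in 10 of 12 samples (miR-467d is slightly earlier in non-stellate 1 and 3), miR-467b is determined throughout, and 4 assays are undetermined in all samples.

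The assays whose profile over the 10 sorted samples was most like that of each miRNA were ranked by the root mean square (RMS) difference in cycles between profiles centred on their own mean, among 175 candidates determined in all 10. For miR-466h they were miR-31 (0.758), miR-124 (0.823), which is abundant in neurons, and miR-222 (0.835), where the median candidate stood at 1.35. For miR-467b they were miR-192 (0.602), miR-197 (0.622) and miR-325 (0.668), where the median candidate stood at 1.40. All share the card and the RNA input of each sample, so these distances are a description. In tissue against sorted cells, the U6-scaled difference was 3.94 for miR-31, 4.26 for miR-124 and 4.32 for miR-222, beside 4.18 for miR-466h. It was 3.97 for miR-192, 0.36 for miR-197 and 2.92 for miR-325, beside −2.96 for miR-467b.

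miRNAs used as markers of several cell types were measured on the same cards. Between stellate and non-stellate cells none was called, and 163 of all 222 tested assays (73.4%) were on average higher in stellate cells. In these bulk samples, fewer cells of a type and less RNA per cell cannot be told apart. The levels below are U6-scaled Ct of each list summed on the linear scale, so that lower is more abundant. The 4 vascular miRNAs stood at 5.96 to 10.2 in stellate, 8.05 to 10.96 in non-stellate and 2.99 to 3.52 in tissue samples, and 4 of the 4 tested were on average higher in stellate cells. In the authors' in situ hybridization on day 23, miR-143 of this list was dense in stellate neurons, though not only there. It stained only some vessels, so the vascular list is not specific to vascular cells here. The 5 choroid plexus and ependyma miRNAs stood at 6.45 to 9.30, 7.95 to 10.4 and 5.29 to 5.35, with 4 of the 4 tested higher in stellate cells. The 6 blood and microglia miRNAs stood at 5.22 to 9.11, 8.24 to 10.6 and 4.07 to 4.36, with 3 of the 4 tested higher, and miR-142-5p and miR-451 were undetermined in all sorted samples. The authors reported miR-150 of this list as up-regulated in stellate neurons. The 5 neuronal miRNAs on the card stood at 1.84 to 3.07, 1.45 to 4.22 and −0.915 to −0.505, with 4 of the 5 tested higher in stellate cells and none undetermined throughout a group. Of the 2 oligodendrocyte miRNAs, miR-219 was undetermined in all stellate and miR-338-3p in all non-stellate samples, so that the list ranged from 16.8 and from 13.4 to undetermined in these groups, and it stood at 9.03 to 9.90 in tissue. The part of these cells in the miR-466h and miR-467b differences was not tested.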

How the data were processed

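The authors deposited unscaled Ct values, which are log2 units, for 12 samples run on the Rodent A card, and undetermined wells hold 40. Their normalized table, also log2 as deposited, is Ct minus the mean of the 4 U6 wells. The authors' deposited tables of fold changes and test results hold their own comparison and were not used. Log2 differences are minus the difference in U6-scaled Ct. An assay entered the test if no more than 3 of its 10 sorted wells were undetermined (222 of 375 assays), and was tested with limma 3.58.1 in R 4.3.3 (two-sided, Benjamini-Hochberg adjusted over all 222, threshold 0.05), without a block, as the methods state none. Tissue was set against the mean of both sorted groups. Exact permutation tests used scipy 1.17.1 in Python 3.11.15. The limma fit between stellate and non-stellate samples was tested on simulated data. A card gives no molecule count, so the number of determined wells and the U6 Ct stand in for depth.

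The members and the lists were chosen with earlier results of these data known. The text names the 2 members, the other card assays of the miR-466, miR-467, miR-468, miR-297 and miR-669 families, the 3 assays nearest to each member, marker lists and reference RNAs. Replicate numbers pair the sorted samples: the labels derive labelled and unlabelled cells from 5 biological replicates. Deviations from group means correlated at 0.331, 0.119, 0.256, 0.155 and 0.0743 within pairs 1 to 5 and at −0.0481 on average across other numbers (176 assays). Such deviations cancel within a group, which ties the average across other numbers to the values within pairs. That average is therefore not an independent baseline. Alternatives were other reference RNAs, global mean and median centring, raw Ct, a cap of 35, wells at 40 missing, no filter, the replicate block and leaving out samples.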

Additional observations from a re-analysis of the deposited data

Results flagged for a closer look

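In rno-miR-466b, stellate sample 3 stood far from the others of its group, at a U6-scaled Ct of 20.977 where the nearest stellate sample stood at 13.25. This well was undetermined and entered as 40, so the value is a limit and not a level. It was 1 such sample in 10 groups examined, and chance gives about 1 in 20 groups. The cause was not tested.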

How the results depend on the processing

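The stellate difference of miR-466h, for which it was chosen, ranged from 1.34 to 2.10 when 1 sample or pair was left out, a description only. The miR-467b difference between the sorted groups passed the test under none of 30 alternatives (limma adjusted p 0.268 to 0.991), and its direction turned with snoRNA202 scaling (0.13) and on raw Ct (0.16), and ranged from −1.345 without replicate 3 to 0.026 without stellate replicate 1. The tissue difference of miR-466h kept its call in 25 of 29 alternatives (limma adjusted p 4.98e-05 to 0.651 over all 29) and ranged from 4.00 to 4.38 with 1 sample left out. It lost the call with global mean scaling (1.51), median centring (1.195, also 1.195 with the replicate block) and Y1 scaling (0.68). That of miR-467b moved to −5.63, −5.95 (also −5.95 with the block) and −6.46 under the same 3 scalings and to −0.65 on raw Ct, and ranged from −4.46 without tissue replicate 2 to −1.46 without tissue replicate 1. The scalings shift all assays by the same amount per sample, and which one holds the true level was not tested.

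The count of assays called in tissue (141) became 68 with Y1 scaling (17 higher, 51 lower) and 238 without the filter, which tests more assays, and ranged from 97 without tissue replicate 1 to 146. That between the sorted groups was 0 in all 15 fits with samples left out. Of the 10 other assays listed by miRNA number, 0 were called in tissue in the main setting and in each fit with 1 sample left out, 1 with U87 scaling (miR-467d, 1.86) and 1 on raw Ct (miR-467d, 3.42), both higher, and 5 without the filter. Of these 5, 4 were undetermined in all 12 samples, so that their difference of −2.31 is the difference in U6 alone. miR-297c was higher (4.31), but it was determined in only 1 of the 10 sorted samples, stellate 5. Its difference thus rests mostly on undetermined wells, which give no level. On the U6 scale miR-297c stood at 18.23 in stellate 5 and at 17.89 and 16.27 in tissue 1 and 2. The tissue direction of the 3 tested assays of the list also depended on the scaling. Median centring turned it to −1.88 for miR-467d, −1.18 for miR-467e and −2.61 for rno-miR-466b, with 0 called. With the replicate block, which pairs the sorted samples, miR-467b had the same difference of −0.66 (limma adjusted p = 0.809) and miR-466h in tissue 4.18 (limma adjusted p = 0.000589). The block changed no call of miR-466h, miR-467b or the 3 other tested assays of that list. Leaving out non-stellate 3 and 5, and median centring together with the block, were added after seeing the data. Only 2 tissue samples and the late Ct of miR-467b limit the precision.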
